A study of Mus musculus with 4 samples.

Results

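The cytosolic ribosomal protein genes were examined in AB2.2 mouse embryonic stem cells (ESCs) that were cultured with or without added lactate. They were chosen by symbol alone, as the genes named Rpl or Rps followed by a number with at most a trailing a, l or x, together with Rplp0, Rplp1, Rplp2, Rpsa, Rpl22l1 and Rpl7l1. This gave 85 of the 55335 genes in the counts, 32 of the small and 53 of the large ribosomal subunit. GENCODE release M21 on GRCm38, which is mm10, lists 82 of them as protein coding, Rpl6l and Rpl32l as processed pseudogenes and Rps4l as a transcribed processed pseudogene. The test could use 84 of the 85, since Rpl32l had only 3 or 4 reads in every library. The ribosomal protein genes Rps3a1, Fau and Rack1 are among those outside the symbol rule and are given separately at the end.

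The control group held 2 libraries of AB2.2 cells, and the lactate group held 2 libraries of the same line after 50 mM lactate for 24 h. Both groups were grown on mouse embryonic fibroblast feeders with serum, leukemia inhibitory factor, the GSK3 inhibitor CHIR99021 and the MEK inhibitor PD0325901, and the labels name no allele or genotype that differs between them. AB2.2 is a single line, and nothing in the labels says whether the 2 libraries of a group came from separate cultures, so p-values measure only the spread between these libraries. Total RNA was sequenced, and the reads counted on genes were 18067562 in control replicate 1, 19077885 in control replicate 2, 18542554 in lactate replicate 1 and 18948861 in lactate replicate 2.

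A ribosome is built from ribosomal RNA and about equal numbers of copies of each ribosomal protein, arranged in a small subunit that reads the mRNA and a large subunit that joins amino acids. The mRNAs of ribosomal proteins are among the most abundant in dividing cells. Most of them begin with a cytosine followed by a run of pyrimidines, the 5′ terminal oligopyrimidine motif, through which their translation follows growth signals, so that the amount of mRNA and the amount of protein made can move apart.

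Markers of ESCs were expressed in all 4 libraries. Nanog was measured at 956 and 753 CPM in control and 971 and 836 CPM in lactate, where CPM is the read count scaled to library size by TMM normalization, and Sox2 at 341 and 343 CPM in control and 483 and 525 CPM in lactate. The 10 ESC markers summed to 5785 and 6192 CPM in control and 6151 and 6991 CPM in lactate. Genes of fibroblasts, the cell type of the feeders, summed over 11 markers, which all passed the filter on low counts, to 718 and 974 CPM in control and 734 and 798 CPM in lactate, most of it Col1a1 and Acta2, with Lum between 0.405 and 0.738 CPM. The part of the feeders in the values below was not tested. In such bulk RNA, fewer cells of a type and less RNA per cell cannot be told apart.

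The libraries of one group differed strongly in these genes. Of all reads on genes, ribosomal protein genes held 4.06% in control replicate 1 and 5.38% in control replicate 2, and 3.96% in lactate replicate 1 and 5.69% in lactate replicate 2. Per transcript length the difference had the same order, with 14.1% and 19.1% of the summed TPM, a level scaled to transcript length and library, in control and 14.3% and 19.5% in lactate. The groups therefore overlapped almost completely, and the replicate 2 libraries were the high ones in both. Mitochondrially encoded genes were the reverse, at 5.48% and 2.43% of the counts in control and 5.72% and 2.82% in lactate. With them left out, ribosomal protein genes still held 4.29%, 5.52%, 4.20% and 5.86% of the counts in the same order of libraries. Replicate 2 was then 1.29-fold above replicate 1 in control and 1.39-fold in lactate, compared with 1.33-fold and 1.44-fold with them included.

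Of the 84 members tested, 74 (88.1%) were higher in replicate 2 than in replicate 1 in both groups, against 38.9% of the 18661 genes tested. The median difference was 0.481 on the log2 scale between the control libraries and 0.611 between the lactate libraries, while over all genes tested it was 0.0143 and 0.0094. In 66 of the 84 members (78.6%) the libraries of each group differed by more than the groups did, compared with 35.1% of all genes. The short transcripts stood out. Members under 600 bases (28 genes) had median library differences of 0.621 and 0.801, those of 1000 to 2000 bases (19 genes) 0.240 and 0.287, and all genes under 600 bases 0.107 and 0.138.

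**Figure D1:**
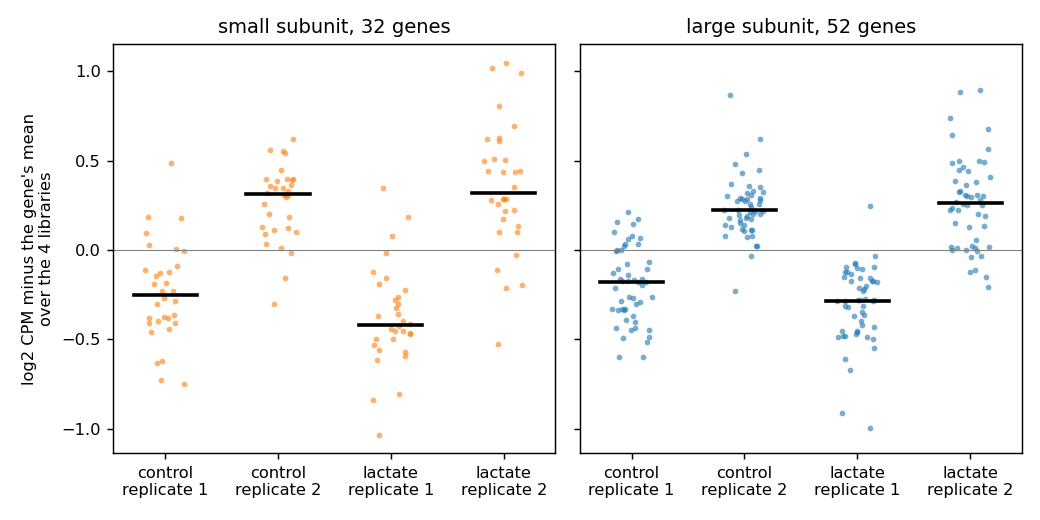
Levels of the 84 ribosomal protein genes tested in each library, as log2 CPM minus the mean of that gene over the 4 libraries, with the small subunit on the left and the large subunit on the right. Each point is a gene and each bar the median; both replicate 2 libraries sit above both replicate 1 libraries, whichever group they belong to.

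The largest differences between libraries of a group were found in Rps28, Rps19, Rps29, Rplp2 and Rpl37a. Of the genes in this and the following account, Rplp2 and Rpsa were named by role, and Rps19 by role and by its change. Rpl37a and Rps10 were named by rules that use their values. The others were chosen after their values were seen. Rps29, a zinc-binding protein of the small subunit, was at 34.5 and 82.2 CPM in control and 26.1 and 111 CPM in lactate. Rps19, whose human counterpart is the gene most often mutated in Diamond-Blackfan anaemia, was at 166 and 401 CPM in control and 154 and 557 CPM in lactate. Rps28 was at 60.7 and 150.4 CPM in control and 58.4 and 203 CPM in lactate. For all 3 genes the high libraries were replicate 2 of either group, with a difference of 2.38-fold and 4.23-fold within the control and the lactate group for Rps29, 2.41-fold and 3.62-fold for Rps19, and 2.48-fold and 3.48-fold for Rps28. Rplp2, one of the acidic stalk proteins, differed 2.33-fold and 3.47-fold, and Rpl37a 2.30-fold and 2.75-fold. Replicate 2 was at least 2-fold above replicate 1 in both groups in 6 members (7.14%) and in 0.563% of all genes tested.

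Another 4 members went the other way in both groups. Rps26, which lies at the exit channel of the mRNA, was at 1067 and 618 CPM in control and 968 and 529 CPM in lactate, so that replicate 2 was the low library of each group. Rps10, on the head of the small subunit, was at 375 and 295 CPM in control and 374 and 284 CPM in lactate. Rpsa and Rpl28 were the other members that were lower in replicate 2 of both groups. Levels of Rpsa were 2497 and 2466 CPM in control and 2582 and 2265 CPM in lactate.

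**Figure D2:**
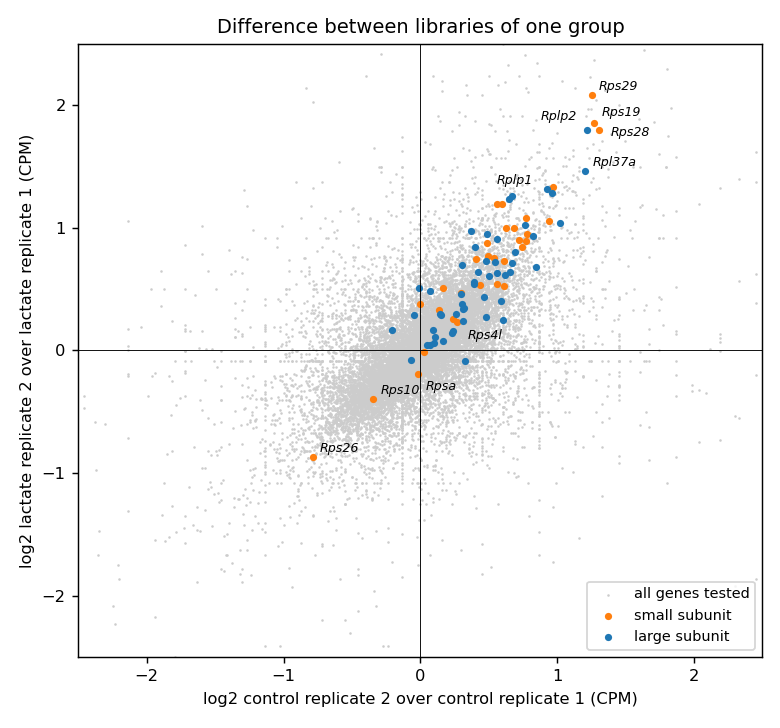
Log2 ratio of replicate 2 to replicate 1 in the control libraries (horizontal axis) and in the lactate libraries (vertical axis) for all genes tested (grey) and for ribosomal protein genes of the small and large subunit. Most ribosomal protein genes lie to the upper right, from near 0 to Rps29, and Rps26 and Rps10 lie to the lower left; 55 genes lie outside the axes.

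Start site sequences were taken from the RefSeq promoter table of GRCm38.p6, which held 75 start sites for 63 of the 85 members. The sense strand was searched from 20 bases before to 50 bases after each start for CTTTC and CTTCC, 2 short forms of the pyrimidine tract, which can overlap each other. Either was found in 45 of the 63 members (71.4%) and in 64% of the members' windows, against 21.5% of all 32851 windows in the table. CTTTC was in 44% of the members' windows and 8.97% of all windows, and CTTCC in 37.3% and 14.1%. Windows of 30 bases are shown for members with a large difference between libraries in either direction (Rplp2, Rps28, Rps26 and Rps10), for 2 of the shortest members (Rps27 and Rpl38) and for the paralogs Rpl22l1 and Rpl7l1 described below, from 10 bases before to 20 bases after the annotated start, with the searched motifs in capitals.
Rplp2 (chr7:141447641-141447670, plus strand): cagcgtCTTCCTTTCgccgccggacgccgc
Rps10 (chr17:27635225-27635254, minus strand): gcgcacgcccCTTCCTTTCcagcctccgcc
Rps26 (chr10:128626487-128626516, minus strand): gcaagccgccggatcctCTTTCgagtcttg
Rpl38 (chr11:114668570-114668599, plus strand): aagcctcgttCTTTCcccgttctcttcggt
Rps27 (chr3:90213629-90213658, minus strand): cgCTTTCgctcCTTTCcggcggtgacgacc
Rps28 (chr17:33824543-33824572, minus strand): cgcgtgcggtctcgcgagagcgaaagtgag
Rpl22l1 (chr3:28805498-28805527, plus strand): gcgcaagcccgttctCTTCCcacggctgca
Rpl7l1 (chr17:46782637-46782666, minus strand): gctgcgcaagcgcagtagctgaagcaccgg
In Rpl38 and Rps10 the capitals begin at the annotated start itself, and in Rps28 and Rpl7l1 the letters searched are not in the window shown. The windows of Rplp2, which was high in the replicate 2 libraries, and of Rps10, which was low in them, both hold CTTCCTTTC. Members with either motif (44 tested) had median differences between the libraries of 0.441 in control and 0.596 in the lactate group, and members without (18 tested) had 0.459 and 0.519. The letters CCGGAAG, searched on both strands of the whole 300 bases, were in 39.7% of the members (34.7% of their windows, against 8.86% of all windows), and AAGATGGC in 9.52% (10.7% of windows against 2.75%).

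The comparison of lactate with control asks whether the treatment changed the mRNA of the ribosome's own proteins. No ribosomal protein gene passed the test in either direction (adjusted p under 0.05, quasi-likelihood test of edgeR, Benjamini-Hochberg adjustment over the 18661 genes tested). Of all genes tested, 0.568% were higher and 0.423% lower by this rule, and 0.552% and 0.348% when a change of more than 2-fold was also asked for. At an unadjusted p under 0.05, 1 member was higher (Rpl3l) and 2 were lower (Rps4l and Rpl19), against 11.7% and 11.4% of all genes. With DESeq2, 1 member, Rps4l, was lower at an adjusted p under 0.05 (1.19% of members, against 2.84% of all genes) and none was higher (against 1.69%). These fits used condition alone. With the replicate number added as a block, edgeR called 12 members higher and 20 lower (14.3% and 23.8%, against 22.0% and 22.5% of all genes). No label says what that number stands for, so the absence of calls depends on leaving it out. With limma on log2(FPKM + 1) no gene of any kind passed among 20019, though 1791 were higher and 1123 lower at an unadjusted p under 0.05, so its calls say nothing about the members or the lists below.

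The changes were small and lay on both sides of 0. Log2 fold changes ran from -0.62 to 0.62, with 39 members higher and 45 lower in lactate. Their median was -0.0229 (small subunit -0.0155, large subunit -0.0278), beside 0.0101 over all genes tested, and it was above 0 with upper-quartile factors (0.00977), with library totals alone (0.0442) and in limma (0.024), though below the median of all genes in each of these. In 74 of the 84 members (88.1%) the change was under 1.25-fold, compared with 55.8% of all genes, and in 70 (83.3%) it was smaller than its own standard error, compared with 41.1%. The median standard error was 0.262 for the members and 0.212 for all genes, so the members were measured with more spread than other genes. These standard errors come from the fit on condition alone and include the difference between replicate 1 and replicate 2. A change below its standard error does not show that a change was absent. In simulated counts of this comparison the same test called 24 of 50 genes (48%) that had been changed 2-fold. It called 37 of 50 (74%) changed by 1.5 on the log2 scale and 42 of 49 (85.7%) changed 4-fold. Changes of 2-fold were thus often not detected in the simulation, and smaller ones were not simulated. The changed genes were drawn at random from all genes tested, and each library was drawn independently, without a difference shared by the replicate 2 libraries. How often the test would call such changes among the members, with their larger spread, was not simulated.

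The sign of the median depended on single libraries. It was -0.244 without control replicate 1 and 0.245 without control replicate 2, and it was 0.204 without lactate replicate 1 and -0.386 without lactate replicate 2. Without lactate replicate 1, 6 members were called higher, namely Rpl22l1, Rpl39, Rps19, Rps20, Rps28 and Rps29 (7.14% of members, against 2.61% of all genes), and none lower (against 2.47%). Without lactate replicate 2, 6 members were called lower, namely Rpl37a, Rplp2, Rps13, Rps19, Rps28 and Rps29 (7.14%, against 3.64% of all genes), and none higher (against 3.64%). Rps19, Rps28 and Rps29 had opposite signs in these fits. They were the members that differed most between the 2 lactate libraries, so the opposite signs repeat that difference and add nothing about lactate. With either control library left out, no member was called, against 0.241% of all genes higher and 0.204% lower without control replicate 1 and 0.9% and 0.954% without control replicate 2. At an unadjusted p under 0.05, 3 members were lower and 0 higher without control replicate 1 (3.57% and 0%, against 8.67% and 7.36% of all genes), and 7 were higher and 0 lower without control replicate 2 (8.33% and 0%, against 7.41% and 7.27%).

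**Figure D3:**
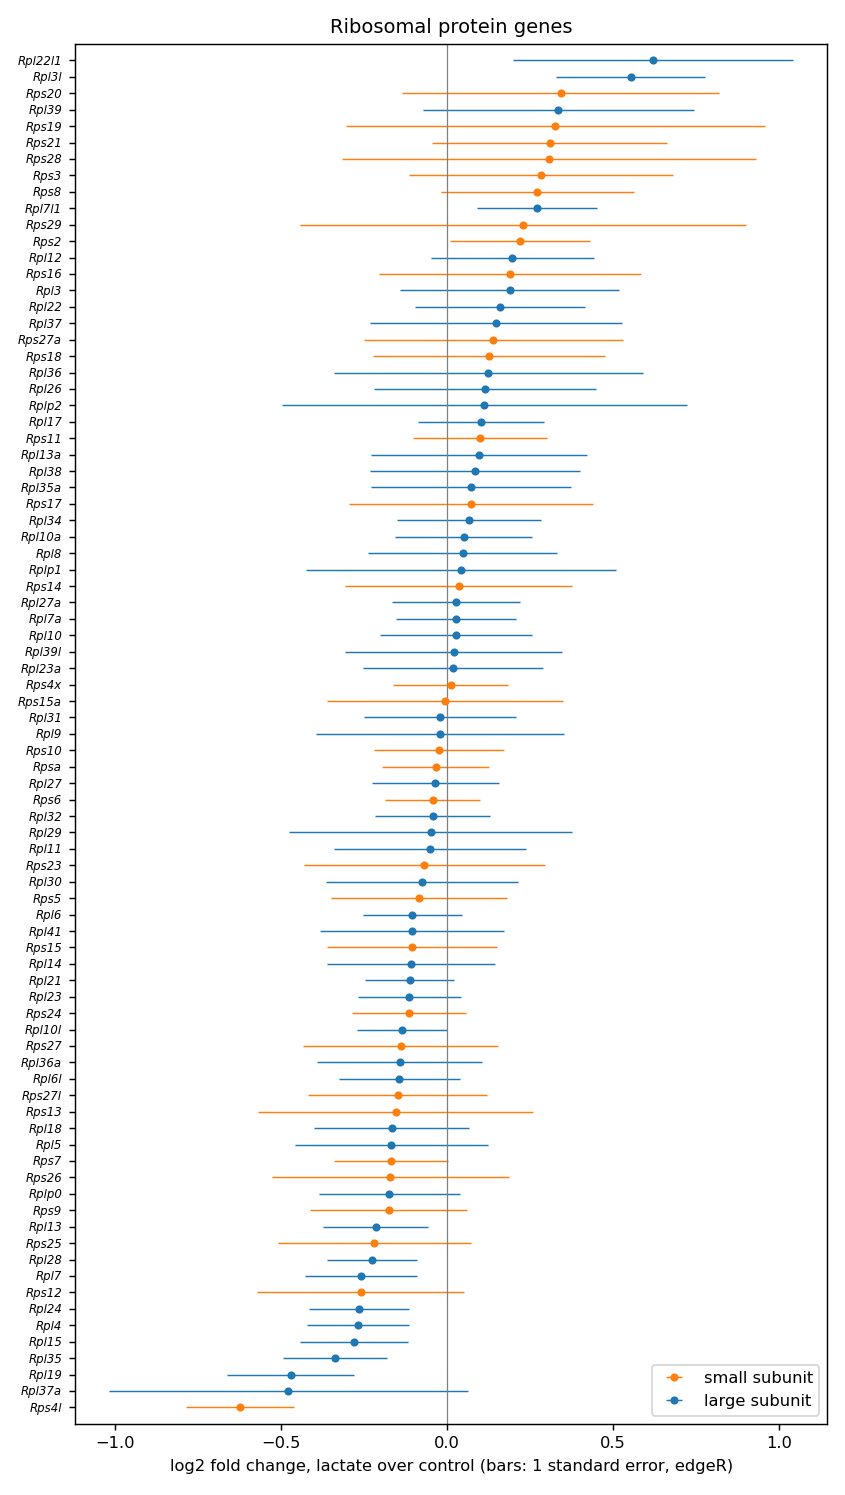
Log2 fold change of lactate over control for 83 of the 84 ribosomal protein genes tested, ordered by size, with bars of 1 standard error from edgeR and colours for the subunit. Values run from Rps4l at -0.62 to Rpl22l1 at 0.62, and the bars of most genes cross 0.

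Counts for the 2 subunits were compared because the rule splits the genes in this way. Summed counts of the small subunit divided by those of the large subunit gave 0.702 and 0.676 in control and 0.716 and 0.740 in lactate. Both lactate libraries were above both control libraries, but the nearest values of the groups, 0.702 and 0.716, were closer to each other than the control libraries were. Summed TPM gave ratios of 0.866 and 0.822 in control and 0.879 and 0.855 in lactate, and here the groups overlapped. The median log2 CPM of small minus large subunit genes was -0.0795 and 0.0434 in control and -0.0231 and 0.246 in lactate, with a pooled SD within groups of 0.148. An exact permutation test of 2 against 2 libraries cannot give a two-sided p below 0.333, so no test was made of these ratios.

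Both lactate libraries were below both control libraries in 13 members (15.5%), against 25.9% of all genes tested, and above both in 1 (1.19%), against 27.0%. Of the 13, 2 were among the 32 genes of the small subunit (6.25%) and 11 among the 52 of the large subunit (21.2%), both below the share of all genes, and the difference between the subunits was not tested. Those of the small subunit were Rps4l and Rps6, and those of the large subunit included Rpl4, Rpl7, Rpl10l, Rpl13, Rpl15, Rpl19, Rpl21, Rpl24, Rpl28 and Rpl35. The member above was Rpl3l. They are listed for this pattern, whether or not the rule for named genes holds them.

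The lowest value of lactate relative to control was that of Rps4l (chromosome 6, 148354656 to 148355598, plus strand), an intronless relative of the X-linked Rps4x. Its levels were 303 and 366 CPM in control and 199.7 and 234 CPM in lactate, and the groups did not overlap. The log2 fold change was -0.62 ± 0.16 (SE, adjusted p = 0.10), with an unadjusted p of 0.00781. DESeq2 gave -0.645 with an adjusted p of 0.0367, and edgeR without a filter on low counts, where 5.05% of all genes were called lower and 3.61% higher, gave -0.668 with 0.0163, while the RSEM expected counts gave -0.655 with 0.102 in edgeR and limma on log2(FPKM + 1) gave -0.570 with 0.347. Rps4x itself (chromosome X, 102184941 to 102189394, minus strand) was at 1126 and 1326 CPM in control and 1127 and 1344 CPM in lactate, a log2 fold change of 0.011 ± 0.17 (SE, adjusted p = 0.978). Reads of the 2 genes may be hard to tell apart, and the raw counts were 1.05 times the expected counts for Rps4l and 1.10 times for Rps4x.

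The next lowest members belonged to the large subunit. Rpl37a, a zinc-binding protein, was at 113 and 259 CPM in control and 71.1 and 196 CPM in lactate, and its groups overlapped at a log2 fold change of -0.48 ± 0.54 (SE, adjusted p = 0.651). Rpl19, part of a bridge between the subunits, was at 559 and 587 CPM in control and 345 and 482 CPM in lactate, with a log2 fold change of -0.47 ± 0.19 (SE, adjusted p = 0.211), which became -0.275 without lactate replicate 1 and -0.736 without lactate replicate 2. Its 2 lactate libraries were both low, but differed 1.40-fold. Rpl35, at the exit of the peptide tunnel, was at 187 and 235 CPM in control and 172 and 163 CPM in lactate. Its log2 fold change was -0.34 ± 0.16 (SE, adjusted p = 0.264), and both lactate libraries were below both control libraries. Without control replicate 1 it became -0.510 and without control replicate 2 -0.169.

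At the other end, Rpl22l1 was at 17.8 and 28.4 CPM in control and 20.9 and 50.1 CPM in lactate, with a log2 fold change of 0.62 ± 0.42 (SE, adjusted p = 0.429), which became -0.147 without lactate replicate 2. Rpl3l, whose protein replaces that of Rpl3 in muscle, was barely expressed, with 2.31 and 2.48 CPM in control and 3.44 and 3.60 CPM in lactate, and both lactate libraries were above both control libraries at a log2 fold change of 0.55 ± 0.22 (SE, adjusted p = 0.209). Rps20 was at 287 and 562 CPM in control and 306 and 771 CPM in lactate, and Rpl39 was at 85.0 and 133 CPM in control and 82.0 and 193 CPM in lactate. In these 2 genes, as in Rps19, lactate replicate 2 was the highest library and replicate 1 of the same group was near or below the control. Log2 fold changes were 0.34 ± 0.48 (SE, adjusted p = 0.724) for Rps20, 0.34 ± 0.41 (SE, adjusted p = 0.680) for Rpl39 and 0.33 ± 0.63 (SE, adjusted p = 0.810) for Rps19.

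The stalk proteins recruit translation factors to the large subunit. Rplp0, its base, was at 1208 and 1686 CPM in control and 1161 and 1404 CPM in lactate, and its log2 fold change was -0.17 ± 0.21 (SE, adjusted p = 0.680). Rplp1 was at 419 and 797 CPM in control and 359 and 893 CPM in lactate, and Rplp2 was at 185 and 430.2 CPM in control and 149 and 516 CPM in lactate. Neither of the latter separated the groups, since in each the replicate 2 libraries were high (log2 fold changes of 0.042 ± 0.47 (SE, adjusted p = 0.969) and 0.11 ± 0.61 (SE, adjusted p = 0.938)). Rplp0 differed less between libraries, 1.40-fold in control and 1.21-fold in the lactate group.

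Rpl5 and Rpl11 bind the 5S ribosomal RNA and, when not built into ribosomes, the p53 regulator Mdm2. Rpl5 was at 862 and 1259 CPM in control and 712 and 1176 CPM in lactate, with a log2 fold change of -0.17 ± 0.29 (SE, adjusted p = 0.784). Rpl11 was at 349 and 549.6 CPM in control and 338 and 528 CPM in lactate, with -0.052 ± 0.29 (SE, adjusted p = 0.939). The groups overlapped in both. Mdm2 mRNA was at 259 and 215 CPM in control and 262 and 216 CPM in lactate, and its groups overlapped as well.

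Rps6, the small subunit protein that S6 kinase phosphorylates when growth signals are on, was nearly even across the libraries, at 1171 and 1193 CPM in control and 1153 and 1142 CPM in lactate. Its log2 fold change was -0.043 ± 0.14 (SE, adjusted p = 0.894), and the 2 groups were separated by only a small margin. Rpsa, also known as a laminin receptor, gave -0.034 ± 0.16 (SE, adjusted p = 0.928). Rpl10a gave 0.050 ± 0.21 (SE, adjusted p = 0.917) from 656 and 805 CPM in control and 636 and 876 CPM in lactate, and Rpl38, which the mouse embryo needs for patterning of the axial skeleton, gave 0.085 ± 0.32 (SE, adjusted p = 0.908) from 68.2 and 88.4 CPM in control and 56.0 and 110.1 CPM in lactate.

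Several ribosomal protein genes have a paralog, and some of these are used in particular tissues or states. The share of the paralog in the sum of the pair was computed per library from TPM. These are shares of RNA and were not tested. Rps4l, listed as a transcribed processed pseudogene, made up 22.7% and 23.3% of its pair with Rps4x in control and 16.1% and 15.97% in lactate. In this pair the libraries of one group were within 1 percentage point of each other while the groups were apart. Rpl7l1 made up 6.96% and 7.83% of its pair with Rpl7 in control and 10.7% and 10.1% in lactate, and by counts 16.2% and 17.9% against 22.7% and 23.2%. Neither partner passed the test, with log2 fold changes of 0.27 ± 0.18 (SE, adjusted p = 0.422) for Rpl7l1 and -0.26 ± 0.17 (SE, adjusted p = 0.407) for Rpl7. That of Rpl7l1 was 0.106 without control replicate 1, 0.428 without control replicate 2 and 0.0865 without lactate replicate 2, and that of Rpl7 was -0.143 without lactate replicate 1 and -0.420 without lactate replicate 2. Levels of Rpl7l1 were 192 and 238 CPM in control and 229 and 289.6 CPM in lactate, and those of Rpl7 were 989.7 and 1092 CPM in control and 779.6 and 960.4 CPM in lactate.

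The other pairs did not separate the groups as clearly. Rpl22l1, which is known to be held down by the Rpl22 protein, made up 11.9%, 13.1%, 14.7% and 21.3% of its pair with Rpl22 in the 4 libraries (control first, replicate 1 before 2), so the lactate libraries were both higher but far apart. By counts the shares were 8.01%, 8.90%, 8.72% and 13.0%, and the groups overlapped. Rpl39l, a paralog of male germ cells, made up 16.8%, 16.9%, 15.2% and 13.5% of its pair with Rpl39 in the same order. By counts its shares were 25.49%, 24.3%, 23.56% and 19.75%, so both lactate libraries were below both control libraries by either measure. Rpl10l, used in the testis in place of the X-linked Rpl10, made up 14.9%, 10.3%, 10.7% and 10.6%, where only control replicate 1 was high. Rps27l, a p53 target, made up 14.5%, 12.6%, 12.6% and 14.3% of its pair with Rps27, and Rpl3l at most 0.467% of its pair with Rpl3. Log2 fold changes were 0.020 ± 0.33 (SE, adjusted p = 0.979) for Rpl39l, -0.13 ± 0.14 (SE, adjusted p = 0.605) for Rpl10l and -0.15 ± 0.27 (SE, adjusted p = 0.793) for Rps27l. Their partners Rpl22, Rpl10 and Rps27 gave 0.16, 0.027 and -0.14 with groups that overlapped.

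**Figure D4:**
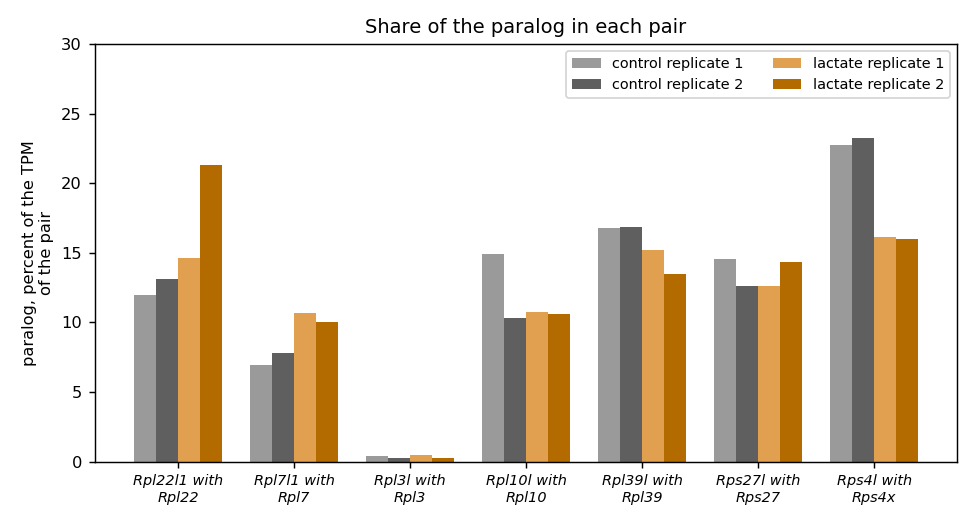
Share of each paralog in the summed TPM of the paralog and its partner gene, in percent, with a bar for each of the 4 libraries. The shares of Rps4l and Rpl39l are lower, and those of Rpl7l1 and Rpl22l1 higher, in both lactate libraries than in both control libraries. Rpl22l1 reaches 21.3% in lactate replicate 2.

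Per transcript length the members spanned a wide range of levels. Their median was 1443 and 1973 TPM in control and 1524 and 2113 TPM in lactate. Rps24 was highest, at 6171 and 5951 TPM in control and 5347 and 5537 TPM in lactate, followed by Rpl23a at 4245 and 6347 TPM in control and 4727 and 6498 TPM in lactate and Rplp1 at 3291 and 6166 TPM in control and 3078 and 6752 TPM in lactate. These 3 ranges overlap between libraries, so their order is not fixed. The lowest were Rpl32l, listed at 0 in 3 of the libraries and at 0.93 TPM in control replicate 2, Rpl3l with 2.70 to 3.69 TPM, and Rpl6l with 24.4 to 29.2 TPM. At least 100 TPM was reached by 81 members in control replicate 1, 82 in control replicate 2, 81 in lactate replicate 1 and 82 in lactate replicate 2. The small subunit had medians of 1766, 2490, 1858 and 2497 TPM in these libraries and the large subunit 1268, 1764, 1239 and 1723 TPM. Very short transcripts leave RSEM few start positions for a fragment (an effective length of 46.0 bases for Rps27 and 61.7 for Rpl38), and their TPM rests on that estimate.

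Ribosomal protein genes have many near-identical copies in the genome, and the 2 deposited tables may differ in how such reads are placed. Whether this accounts for the ratios below was not tested. Raw counts divided by RSEM expected counts had a median of 1.09 over the 84 members (quartiles 1.07 and 1.14) and 1.21 over 16615 genes tested. In 8 members the ratio was below 0.75 and in 3 it was above 1.5. The lowest were Rpl13a at 0.499, Rpl23a at 0.512 and Rps10 at 0.530; in these genes the raw counts were the smaller of the 2 values. The highest were Rpl3 at 1.94, Rpl5 at 1.80 and Rpl34 at 1.68. Over the 4 libraries the ratio of Rpl23a ran from 0.498 to 0.520. That of Rpl3 was 2.11 and 2.13 in the replicate 1 libraries and 1.81 and 1.72 in the replicate 2 libraries of control and lactate. The log2 fold changes of these genes, from the raw counts, were 0.10, 0.018, -0.025, 0.19, -0.17 and 0.066, all with groups that overlapped.

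Genes for building ribosomes were set beside the ribosomal proteins. Of 47 ribosome biogenesis factors, 10 were higher and 37 lower, and the median of the list was -0.192 (log2). None passed edgeR at an adjusted p under 0.05. At an unadjusted p under 0.05, 2 were higher (4.26%, against 11.7% of all genes) and 16 lower (34.0%, against 11.4%). DESeq2 called 5 of them lower, namely Bop1, Nhp2, Pes1, Ppan and Rrp1 (10.6%, against 2.84% of all genes). Without lactate replicate 2, Imp3, Nop10 and Rrp1 were called lower (6.38%, against 3.64% of all genes), and without lactate replicate 1 Bop1 was (2.13%, against 2.47%). With any library left out the median was -0.308 to -0.224, and with library totals alone it was -0.125. Both lactate libraries were below both control libraries in 22 (46.8%), against 25.9% of all genes.

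The list holds Bop1, Pes1 and Wdr12, whose proteins form the PeBoW complex that processes large subunit RNA. Bop1 was at 103 and 112 CPM in control and 65.5 and 63.0 CPM in lactate, with a log2 fold change of -0.74 ± 0.13 (SE, adjusted p = 0.0553). Pes1 was at 239.7 and 269 CPM in control and 151 and 160.2 CPM in lactate, with -0.71 ± 0.14 (SE, adjusted p = 0.0620). Wdr12 was at 93.7 and 116 CPM in control and 93.7 and 111 CPM in lactate, with -0.035 ± 0.16 (SE, adjusted p = 0.927), so that its groups overlapped while those of Bop1 and Pes1 did not. These 3 genes were chosen after values were seen. Rrp1, the lowest of the list by the size of its change, was at 159 and 183 CPM in control and 85.8 and 113 CPM in lactate, with -0.79 ± 0.18 (SE, adjusted p = 0.0761), and Ltv1, which helps export the small subunit, was the highest, at 96.3 and 85.5 CPM in control and 125 and 109 CPM in lactate, with 0.36 ± 0.14 (SE, adjusted p = 0.204). The abundant nucleolar proteins Npm1 and Ncl, also chosen afterwards, gave -0.20 and -0.11.

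RNA polymerase I, which makes ribosomal RNA, and its factors had a median of -0.273 over 11 genes, 2 of them higher and 9 lower. None passed an adjusted p under 0.05 in edgeR or DESeq2, and 0 were higher and 2 lower (Polr1e and Ubtf, 18.2%) at an unadjusted p under 0.05, against 11.7% and 11.4% of all genes. Polr1e was at 35.9 and 36.9 CPM in control and 24.4 and 25.9 CPM in lactate, with -0.54 ± 0.14 (SE, adjusted p = 0.101), and the highest value was that of Taf1b at 0.075. The median was -0.139 without control replicate 2, and without lactate replicate 2 Polr1c was called lower (9.09%, against 3.64% of all genes). In Polr1e the 2 libraries of each group were close together and the groups apart.

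Of 78 mitochondrial ribosomal protein genes, which are encoded in the nucleus and serve a separate ribosome, 23 were higher and 55 lower, with a median of -0.142. With library totals alone that median was -0.073. None passed in edgeR, and 0 were higher and 11 lower (14.1%) at an unadjusted p under 0.05, against 11.7% and 11.4% of all genes. DESeq2 called Mrpl14 and Mrps12 lower (2.56%, against 2.84% of all genes). The median was -0.224 without lactate replicate 2, where 5 genes were called lower (6.41%, against 3.64% of all genes), and -0.098 without lactate replicate 1, where Mrpl14 was (1.28%, against 2.47%). Mrpl14 was at 11.3 and 13.1 CPM in control and 4.68 and 6.03 CPM in lactate, with -1.18 ± 0.21 (SE, adjusted p = 0.0571), and Mrpl3 at 47.2 and 53.6 CPM in control and 57.2 and 71.7 CPM in lactate, with 0.36 ± 0.16 (SE, adjusted p = 0.257). Between the libraries of a group this list differed by a median of 0.154 and 0.142, less than the cytosolic members.

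**Figure D5:**
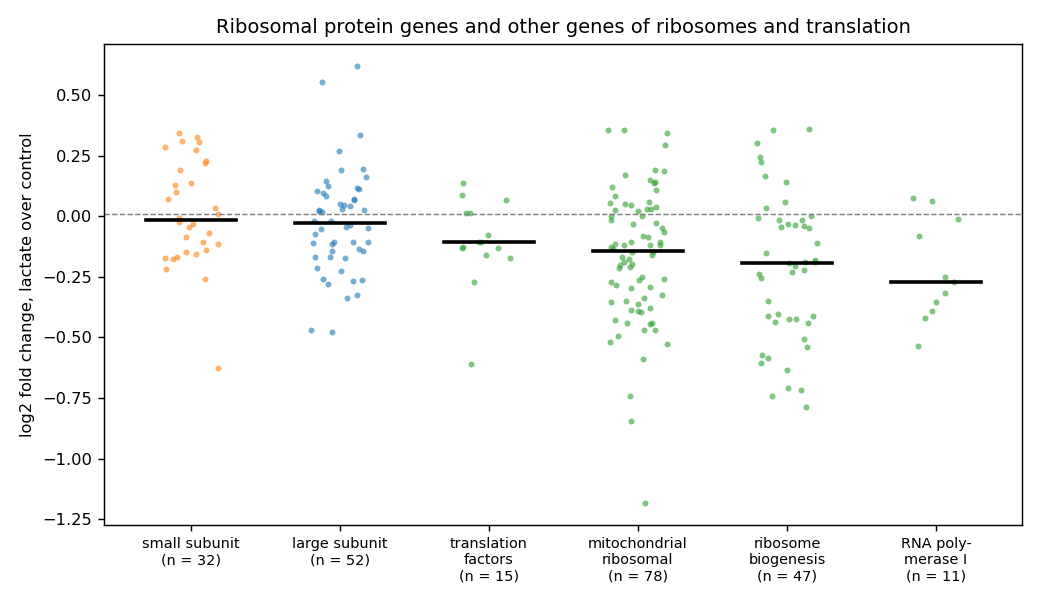
Log2 fold change of lactate over control for the ribosomal protein genes of each subunit and for 4 other lists of genes, with a point for each gene, a bar at each median and a dashed line at the median of all genes tested (0.0101). Medians are -0.0155 and -0.0278 for the subunits, and -0.273 for RNA polymerase I, the lowest of those plotted.

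Translation factors and other genes whose mRNAs carry the same pyrimidine motif (15 genes) had a median of -0.108, with 5 higher and 10 lower. That median was -0.0408 with library totals alone and -0.0382 with limma on log2(FPKM + 1). In edgeR none passed, and 1, Eif4b, was lower at an unadjusted p under 0.05 (6.67%, against 11.4% of all genes). Eif4b, which helps unwind the start of mRNAs, was at 952 and 1029.5 CPM in control and 639 and 658 CPM in lactate, with -0.61 ± 0.14 (SE, adjusted p = 0.0818), and DESeq2 called it lower (6.67%, against 2.84% of all genes). Eif3e had the highest value, 0.14. Among 11 proteins that control such mRNAs, 8 were higher and 3 lower, with a median of 0.162. None passed in edgeR or DESeq2. Only Eif4ebp1, an inhibitor of cap-dependent translation, was higher at an unadjusted p under 0.05 in edgeR (9.09%, against 11.7% of all genes). The highest value in this list was that of Cnbp at 0.38 and the lowest that of Ssb at -0.45. The median was 0.0888 without control replicate 2 and 0.0917 without lactate replicate 1. Without lactate replicate 1, Ssb was called lower (9.09%, against 2.47% of all genes). Of these controllers, 2 of 11 were higher in replicate 2 of both groups (18.18%, against 38.87% of all genes) and 6 were lower (54.55%, against 36.12%).

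A list of p53 with its targets had 5 of 12 genes higher and 7 lower. None passed in edgeR, and 2 were higher (16.7%) and 3 lower (25%) at an unadjusted p under 0.05, against 11.7% and 11.4% of all genes. Sesn2, an inhibitor of growth signalling, was at 94.1 and 101 CPM in control and 156 and 170.3 CPM in lactate, with 0.74 ± 0.13 (SE, adjusted p = 0.0565), and it was the 1 gene of the list that DESeq2 called (8.33%, against 1.69% of all genes higher) and that was called without lactate replicate 1 (against 2.61%). Bbc3, a death-promoting target, was at 26.9 and 27.8 CPM in control and 16.9 and 19.3 CPM in lactate, with -0.60 ± 0.16 (SE, adjusted p = 0.101). These 2 genes lay on opposite sides of 0. The 4 dedicated chaperones of ribosomal proteins ran from Grwd1 at -0.37 to Tsr2 at 0.13, and none had an unadjusted p under 0.05 or passed in DESeq2.

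Ribosomal protein genes outside the symbol rule were also mostly high in the replicate 2 libraries. The median of the 6 genes was -0.0490, and 5 of 6 were higher in replicate 2 of both groups. None passed in edgeR or DESeq2. None had an unadjusted p under 0.05 in edgeR, and 1 was lower by this rule in DESeq2 (16.7%, against 8.75% of all genes). The median was -0.263 without control replicate 1, 0.0828 without control replicate 2, 0.0971 without lactate replicate 1 and -0.516 without lactate replicate 2. With library totals alone it was 0.0201, and with limma on log2(FPKM + 1) it was -0.111. Rpl36al was at 48.9 and 80.7 CPM in control and 32.7 and 55.1 CPM in lactate, with -0.56 ± 0.32 (SE, adjusted p = 0.347), and Rps27rt gave 0.072. Without lactate replicate 2, Rpl36al and Fau were called lower (33.3%, against 3.64% of all genes). Fau, Rps3a1 and Rack1, named for being left out by the rule, gave -0.36, -0.021 and -0.015.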

How the data were processed

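The authors trimmed reads with cutadapt 1.16 and mapped them with STAR to mm10. They deposited raw counts per gene, counted in exons (whether strand was used is not given in the sources used here), and, per library, the expected counts, TPM, FPKM and transcript lengths that RSEM estimated. The deposited counts also hold 1153 families of transposable elements, which took 7.36% to 9.41% of all counts and stayed out of the library sizes.

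Counts were compared in R 4.3.3 with edgeR 4.0.16 (filterByExpr, TMM, quasi-likelihood test in its legacy form, condition only, Benjamini-Hochberg adjustment over 18661 genes). Standard errors were derived from the log2 fold change and the F statistic (log2 fold change over root F). CPM values are TMM-scaled. Alternatives were DESeq2 1.42.0, other scalings and filters, edgeR on rounded expected counts, limma 3.58.1 on log2(FPKM + 1) and log2(FPKM + 0.1), a replicate block, and each library left out. The fits were tested on simulated data made from these libraries. Replicate libraries differed beyond sampling noise (chi-square over its degrees of freedom, 35.9 for control and 35.2 for lactate) and were counted separately. Counts thus carry more than counting error. PCR copies are not independent molecules, and their part in this was not tested.

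The members, gene lists and tests were chosen with earlier results of these data known. Named genes were the paralog pairs, the 5 largest changes in each direction, any called member, 10 genes by role, the 3 highest and 3 lowest members by TPM and by ratio of raw to expected counts, and the largest change in each direction of every other list. Positions are from GENCODE M21 and start sites from RefSeq, both on GRCm38. Protein sequences were not used here, and the values of 2 genes are not reported here.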

Additional observations from a re-analysis of the deposited data

How the results depend on the processing

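The call that no ribosomal protein gene passed at an adjusted p under 0.05 held under 9 of 12 other scalings, filters, tables and tests, but in 2 of the 9, both limma fits, no gene at all passed, and from the RSEM table only 44 of 15595 genes were called, so these 3 say little about the members. The exceptions were DESeq2 and no filter on low counts, where 1 member (Rps4l) was called lower (1.19%, against 2.84% and 5.05% of all genes), and the replicate block.

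The labels give both groups the replicate numbers 1 and 2, and no label says what a number stands for. Same-numbered libraries deviated from their group means together, with a correlation of 0.638 over all genes tested. With the number as a replicate block, edgeR called 12 members higher and 20 lower (14.3% and 23.8% of members, against 22.0% and 22.5% of all genes). The block also turned lists with no call into lists with calls, among them 6 ribosome biogenesis factors higher and 28 lower (12.8% and 59.6%), 7 RNA polymerase I genes lower (63.6%) and 5 mitochondrial ribosomal protein genes higher and 32 lower (6.41% and 41.0%). Without a filter on low counts 6 ribosome biogenesis factors (12.8%), 3 mitochondrial ribosomal protein genes (3.85%), Eif4b, Trp53 and the fibroblast marker Col3a1 were called lower, against 5.05% of all genes. Sesn2 and the pseudogene Rpl19-ps3 were called higher, against 3.61%.

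Leaving out each library in turn gave a median log2 fold change of the members of -0.386 to 0.245. Over the other settings it was -0.0633 to 0.0442 and lay below that of all genes in each. Where a library is left out, the lone library of its group is assumed to vary like the other group.

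The log2 fold changes of genes named by the rule, and of Bop1, Pes1, Wdr12, Npm1, Ncl, Fau, Rps3a1, Rack1, Rps26, Rps28 and Rps29, kept their direction except in the cases below, for which the cause was not tested. Without a filter on low counts Rpl10 became -0.0148, Rpl23a -0.0247, Rpl39l -0.0236, Rplp1 -0.000819 and Rps4x -0.0324. With library totals alone Rpl11 became 0.0147, Rps10 0.0411, Rps6 0.0234, Rpsa 0.0312, Rack1 0.0511, Wdr12 0.0309 and Rps3a1 0.0467. With limma on log2(FPKM + 1) Rpl11 became 0.0348, Rps10 0.0334, Wdr12 0.244 and Rps3a1 0.123. With limma on log2(FPKM + 0.1) Rpl11 became 0.0349, Rps10 0.0334, Wdr12 0.249 and Rps3a1 0.124. With DESeq2 Rpl23a became -0.00213, Rpl39l -0.00124 and Rps4x -0.00890. With the replicate block Rpl39l became -0.00340, Rplp1 -0.0264 and Rplp2 -0.0113. With the RSEM expected counts Rpl39l became -0.00566, Rps4x -0.00735 and Rps3a1 0.0411. With upper-quartile factors Rps10 became 0.00674, Rack1 0.0174 and Rps3a1 0.0113. With mitochondrial genes left out Rps4x became -0.00176. Leaving out libraries gave ranges across 0 for Wdr12 -0.199 to 0.121, Fau -0.971 to 0.0419, Ncl -0.328 to 0.118, Rack1 -0.242 to 0.223, Rps26 -0.701 to 0.260, Rps28 -0.859 to 1.10, Rps29 -1.16 to 0.983, Rps3a1 -0.0774 to 0.00267, Rpl10 -0.260 to 0.354, Rpl10a -0.202 to 0.236, Rpl11 -0.413 to 0.309, Rpl13a -0.458 to 0.467, Rpl22 -0.180 to 0.429, Rpl22l1 -0.147 to 1.09, Rpl23a -0.336 to 0.320, Rpl3 -0.271 to 0.572, Rpl34 -0.170 to 0.310, Rpl37a -1.39 to 0.241, Rpl38 -0.488 to 0.466, Rpl39 -0.416 to 0.799, Rpl39l -0.512 to 0.379, Rpl5 -0.578 to 0.125, Rplp0 -0.413 to 0.0807, Rplp1 -0.765 to 0.574, Rplp2 -1.05 to 0.844, Rps10 -0.265 to 0.156, Rps19 -0.886 to 1.09, Rps20 -0.477 to 0.901, Rps24 -0.289 to 0.0135, Rps27 -0.552 to 0.194, Rps27l -0.576 to 0.151, Rps27rt -0.495 to 0.446, Rps4x -0.125 to 0.129 and Rpsa -0.159 to 0.0540. Leaving out a library moved other values by over 1.5 times with no change of sign, to Cnbp 0.0799 to 0.593, Eif3e 0.0508 to 0.207, Grwd1 -0.506 to -0.239, Ltv1 0.228 to 0.457, Mrpl3 0.179 to 0.483, Npm1 -0.316 to -0.105, Rpl10l -0.224 to -0.0803, Rpl36a-ps3 -1.64 to -0.473, Rpl36al -0.993 to -0.160, Rpl6l -0.248 to -0.0561, Rps6 -0.0765 to -0.0353, Ssb -0.820 to -0.0512, Taf1b 0.0209 to 0.0979 and Tsr2 0.0211 to 0.217. Depth limits Rpl32l and Rpl3l, which had 3 to 4 and 40 to 71 reads per library.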

Other observations

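Symbols of ribosomal protein pseudogenes (Rpl or Rps with -ps) matched 309 genes, of which 80 passed the filter on low counts. Their reads can come from the parent genes and are uncertain. The median log2 fold change of the 80 was 0.0018, with 40 higher and 40 lower, and 59 (73.8%) were higher in replicate 2 of both groups, beside 88.1% of the members. None passed an adjusted p under 0.05 in edgeR or DESeq2. In edgeR 1 was higher and 0 lower at an unadjusted p under 0.05 (1.25% and 0%, against 11.7% and 11.4% of all genes). The median depended on single libraries, at -0.232 without control replicate 1, 0.306 without control replicate 2, 0.236 without lactate replicate 1 and -0.537 without lactate replicate 2. Without lactate replicate 1, 5 were called higher and 0 lower (6.25%, against 2.61% of all genes higher), and without lactate replicate 2, 1 was called higher and 6 lower (1.25% and 7.5%, against 3.64% and 3.64%). The highest value was that of Rpl19-ps3 (1.90 ± 0.43 (SE, adjusted p = 0.0771)), at 0.463 and 0.211 CPM in control and 1.29 and 1.22 CPM in lactate, in the opposite direction to Rpl19, and it was called without lactate replicate 2 and without a filter on low counts. The lowest was that of Rpl36a-ps3 (-0.91 ± 0.41 (SE, adjusted p = 0.253)).

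Of the 10 ESC markers, 3 were higher and 1 lower at an unadjusted p under 0.05 (against 11.7% and 11.4% of all genes), with Sox2 highest at 0.56 ± 0.14 (SE, adjusted p = 0.0888) and Utf1 lowest at -0.54 ± 0.18 (SE, adjusted p = 0.157). Of the 11 fibroblast markers, 1 was higher (Pdgfrb, 0.56 ± 0.15 (SE, adjusted p = 0.105)) and 1 lower (Col3a1, -0.90 ± 0.24 (SE, adjusted p = 0.105)). None of either list passed an adjusted p under 0.05 in edgeR, and DESeq2 called Col3a1 lower (9.09% of the fibroblast markers, against 2.84% of all genes). Without lactate replicate 2, Col1a2 and Col3a1 were called lower (18.2%, against 3.64%), and without lactate replicate 1 the ESC marker Dppa5a was called higher (10%, against 2.61%).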
